A study of Homo sapiens with 6 samples.

Results

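The data describe 8 long noncoding RNA genes in 6 human prostate cancer cell lines: PCA3, PCGEM1, MALAT1, NEAT1, H19, MEG3, GAS5 and SNHG1. They were picked out by gene name, with no threshold on their values, as RNAs known from prostate cancer or known to be abundant. The choice was made with earlier results of these data known. Each was found under 1 entry of every table, which makes 8 of 47032 gene symbols. Expression was measured by RNA sequencing, with 1 library per line and total counts between 8661337 and 22433655 per library. LnCaP, VCaP and LAPC4 are castration sensitive, which means that their growth depends on androgens. Their castration-resistant counterparts, named after them, are LnCaP-abl, VCaP-CR and LAPC4-CR. LnCaP and LAPC4 were kept in RPMI and VCaP in DMEM, all with 10% fetal bovine serum. The 3 resistant lines were kept in RPMI with 10% charcoal-stripped serum, which is depleted of steroids, and B27 supplement, and no line received a further treatment. Castration state and medium therefore differ together in every pair and cannot be told apart, and the VCaP pair differs in the base medium as well.

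Each line stands for itself, and the replicates of a state are 3 different lines. A lineage is a sensitive line with its resistant partner. A p-value for state sets the mean change against the spread of the changes over the 3 pairs. A p-value for lineage sets the lineages against the spread left after state, with 2 libraries of different state per lineage. In edgeR and DESeq2 both spreads are estimated partly from other genes, so they are not the gene's own alone. Levels are given as scaled FPKM, which are reads normalised to gene length and library total, divided by 1 factor per library. A change is that of the resistant line relative to its sensitive partner on the log2(scaled FPKM + 1) scale, where changes at low levels come out too small. In such bulk libraries, fewer cells that make an RNA and less of it per cell cannot be told apart. Among the luminal prostate markers checked, KLK3, which encodes prostate-specific antigen, was at 602, 322 and 105 scaled FPKM in the sensitive lines LnCaP, VCaP and LAPC4, and it was lower in each resistant partner, with 0.667 in LnCaP-abl and 2.07 in LAPC4-CR. The luminal marker HOXB13 was at 1.64 scaled FPKM in LAPC4-CR, against 30.5 in LAPC4.

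Long noncoding RNAs act as RNA, without being translated. MALAT1 collects in nuclear speckles, where splicing factors are stored, and the long form of NEAT1 is the scaffold of paraspeckles, nuclear bodies built around RNA-binding proteins. GAS5 and SNHG1 are host genes: small nucleolar RNAs (snoRNAs), which guide the chemical modification of ribosomal RNA, are cut out of their introns, and the spliced remainder is a target of nonsense-mediated decay. H19 and MEG3 are imprinted genes, active mainly from the maternal allele. PCA3 lies antisense within an intron of PRUNE2 and is measured in urine as a prostate cancer marker, and PCGEM1 is a prostate-restricted transcript.

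The genes lie at the following places in the human genome build hg18, the build of the tables per the submitters' processing notes. MALAT1 (ENSG00000251562) spans chr11:65021809-65030516 and NEAT1 (ENSG00000245532) chr11:64946821-64969587, with 52221 bases between them. SNHG1 (ENSG00000255717) spans chr11:62376036-62379962, H19 (ENSG00000130600) chr11:1972982-1979276 and GAS5 (ENSG00000234741) chr1:172099661-172104643. PCA3 (ENSG00000225937) spans chr9:78569172-78592305, PCGEM1 (ENSG00000227418) chr2:193322816-193349870 and MEG3 (ENSG00000214548) chr14:100315500-100397121. The tables class PCA3 and PCGEM1 as processed transcripts and the other 6 as long intergenic noncoding RNAs (lincRNAs). For MALAT1 and NEAT1 the counted length equals the whole span, so every base of it was counted. The counted exons of PCA3 take 17% of its span and those of MEG3 16.4%.

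MALAT1 and the long form of NEAT1 share a known feature at the 3′ end: both end without a poly(A) tail, and a triple helix of 2 U-rich stretches and 1 A-rich stretch protects the end. The stretches are shown because these are the 2 nuclear-body RNAs whose levels are followed below. The sequences are taken from GENCODE release 29 transcripts, 5′ to 3′ and written with T for U. Capitals mark the unbroken runs of at least 8 letters that both ends share in this order, TTTCTTTT, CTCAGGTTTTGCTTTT and AAAAAGCAAAA.
MALAT1: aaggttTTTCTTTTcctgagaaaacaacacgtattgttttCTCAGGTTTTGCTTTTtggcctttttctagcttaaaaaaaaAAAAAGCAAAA
NEAT1: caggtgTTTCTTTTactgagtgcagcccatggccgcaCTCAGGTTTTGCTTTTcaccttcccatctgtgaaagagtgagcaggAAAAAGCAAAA
The MALAT1 stretch is bases 8264 to 8355 of the 8708-base transcript ENST00000534336, and 353 annotated bases follow it. The NEAT1 stretch is bases 22650 to 22743 of ENST00000501122 and ends with the annotated transcript. Searched on the transcript strand in this order within 150 bases, the 3 runs occurred in 2 of 14379 lincRNA transcripts, 0.0139%, and these were the MALAT1 and NEAT1 transcripts shown. The runs were taken from these sequences, so their rarity describes the pair and is no independent finding.

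The start sites of the host genes are shown because SNHG1 and GAS5 belong to a class whose members are known to begin, like ribosomal protein genes, with a run of pyrimidines. Each window holds 10 bases before and 30 bases from the RefSeq start on GRCh38.p14, on the gene's own strand, and capitals mark an unbroken run of C or T that begins with a C at the start. SNHG1 and GAS5 are followed by the 3 related hosts, among those examined, that had a run of 4 or more.
SNHG1: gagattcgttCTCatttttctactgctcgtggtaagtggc
GAS5: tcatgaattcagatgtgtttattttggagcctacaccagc
SNHG5: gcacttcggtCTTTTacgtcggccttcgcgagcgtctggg
SNHG7: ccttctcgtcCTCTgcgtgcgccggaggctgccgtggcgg
SNHG12: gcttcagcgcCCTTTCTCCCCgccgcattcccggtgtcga
The windows lie on the minus strand at chr11:62855856-62855895 for SNHG1, chr1:173869016-173869055 for GAS5, chr6:85678704-85678743 for SNHG5, chr9:136728155-136728194 for SNHG7 and chr1:28581844-28581883 for SNHG12. A run of at least 4 was found at 3 of 9 host starts (33.3%), at 45 of 81 ribosomal protein gene starts (55.6%) and at 1914 of 35116 starts of all genes (5.45%). The 9 do not include SNHG6 and SNHG9, so the host share covers only part of the hosts followed below. An exclusion by chromosome was applied to the host starts alone and can have removed a host. The host share was thus not formed as the other shares were. The run at the SNHG1 start had 3 bases, and the RefSeq start of GAS5 had none. A start placed a few bases off would change these counts, and a match of letters is a description.

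MALAT1, NEAT1, GAS5 and SNHG1, 4 of the 8 genes, had a mean of at least 1 scaled FPKM and were among the 17418 genes tested. PCA3, PCGEM1, H19 and MEG3 had means of 0.823, 0.368, 0.484 and 0.246 and were below that limit. Together the 8 genes took between 0.280% of all counts, in LAPC4, and 0.849%, in VCaP. The plot of levels by line shows all 48 values.

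**Figure D1:**
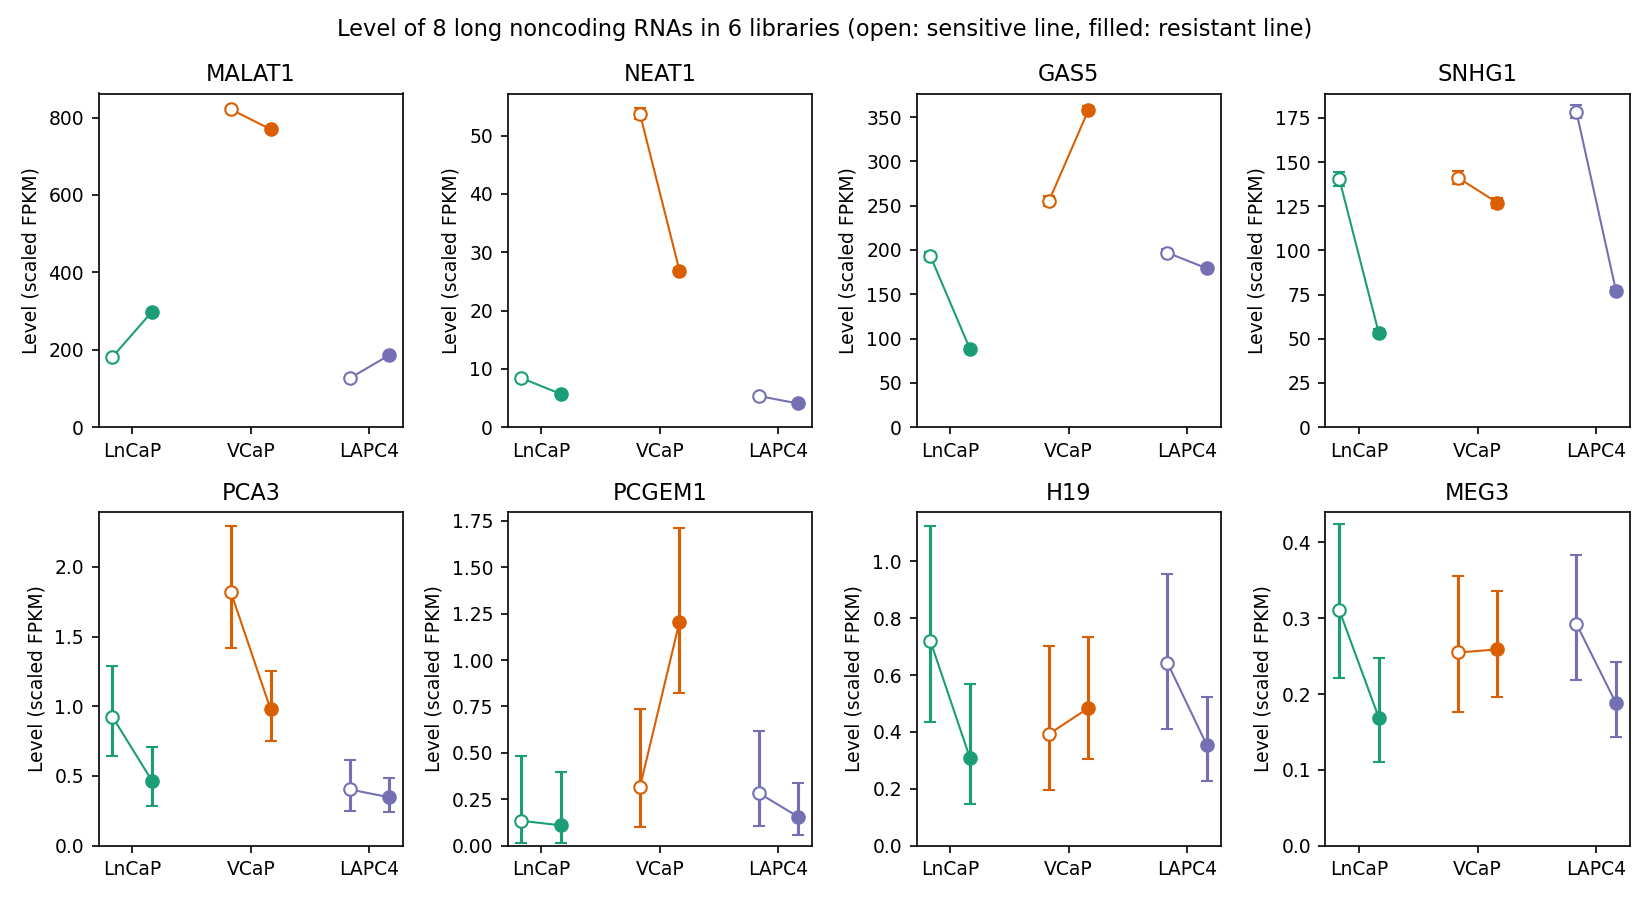
Level of each long noncoding RNA (scaled FPKM, linear axis from 0) in the 6 libraries, with open circles for sensitive and filled circles for resistant lines, a line joining each pair and bars for exact 95% Poisson counting intervals. MALAT1 and NEAT1 are highest in the VCaP lineage, SNHG1 is lower in every resistant line, and the intervals of PCGEM1, H19 and MEG3 are wide.

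MALAT1 was the most abundant of the 8 RNAs in 4 of the 6 libraries, those other than LnCaP and LAPC4, and it differed between the 3 lineages. It was at 181 scaled FPKM in LnCaP against 298 in LnCaP-abl, at 821 in VCaP against 770 in VCaP-CR, and at 126 in LAPC4 against 186 in LAPC4-CR. Both VCaP libraries were above all others, and LnCaP-abl came next. In counts, these levels rested on 14573 reads in LAPC4 up to 108279 in VCaP-CR, and MALAT1 alone took 0.617% of all VCaP counts and 0.118% of all LAPC4 counts. Only LAPC4-CR and LnCaP, which are neighbours in the order of levels, had overlapping counting intervals, 184 to 188 and 179 to 184.

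The mean of the VCaP lineage was 4.02 times the mean of the other lineages. In edgeR's quasi-likelihood test of the lineage terms (2 libraries per lineage, state in the model) MALAT1 passed with an adjusted p of 0.0103. This call was made for 12.1% of all tested genes, and without the VCaP pair the adjusted p was 0.508. Both VCaP-lineage libraries were above the other 4 for 17.1% of all tested genes, so a VCaP-high pattern is common in these data.

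Between the states, MALAT1 was 1.64-fold higher in LnCaP-abl than in LnCaP (95% counting interval 1.61 to 1.68) and 1.47-fold higher in LAPC4-CR than in LAPC4 (1.45 to 1.50). In the VCaP pair the ratio was 0.938 (0.929 to 0.947), so the resistant line was slightly lower. These intervals cover counting error alone, and no line has a second library. Over the 3 pairs the change was 0.39 ± 0.43 (SD, n = 3 pairs), and the states overlapped. The edgeR test of state gave a log2 change of 0.40 (SE 0.25) with an adjusted p of 0.660.

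NEAT1 was lower in the resistant line of all 3 pairs, and its highest library was 13.2 times its lowest, the widest span of the 8 RNAs. It was at 8.41 scaled FPKM in LnCaP against 5.68 in LnCaP-abl, at 53.7 in VCaP against 26.8 in VCaP-CR, and at 5.35 in LAPC4 against 4.06 in LAPC4-CR, with counts between 1488 and 12184. Both VCaP libraries were above all others by a larger ratio than that within any pair, so the states overlapped. The means of the LnCaP and LAPC4 lineages, 7.05 and 4.71, differed by a smaller ratio than the VCaP pair did. The neighbours LnCaP-abl and LAPC4 in the order of levels had overlapping counting intervals, 5.40 to 5.98 and 5.10 to 5.62.

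The lineage difference of NEAT1 passed the edgeR test with an adjusted p of 0.00422, and the VCaP mean was 6.85 times that of the other lineages. Without the VCaP pair the adjusted p was 0.580. DESeq2 passed MALAT1 and NEAT1 in the lineage test as well (adjusted p of 6.86e-08 and 4.34e-15), along with 22.9% of all tested genes. The log2 changes within the pairs were -0.49 for LnCaP, -0.98 for VCaP and -0.33 for LAPC4, a mean of -0.60 ± 0.34 (SD, n = 3 pairs). The exact sign-flip test, two-sided, gave p = 0.25, which is the smallest that 3 pairs allow. In edgeR the state difference was -0.65 (SE 0.25), with an unadjusted p of 0.0375 and an adjusted p of 0.549, and so it did not pass.

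The number of MALAT1 reads per base relative to NEAT1 was higher in every resistant line. The ratio of scaled FPKM was 21.6 in LnCaP against 52.5 in LnCaP-abl, 15.3 in VCaP against 28.7 in VCaP-CR, and 23.5 in LAPC4 against 45.8 in LAPC4-CR. All 3 resistant lines were above all 3 sensitive lines, and since both RNAs are read in the same library, the ratio does not depend on the library factor. This ratio was formed after the values were seen and was not tested. Of single tested genes, 3.9% had all 3 resistant lines above all 3 sensitive lines, and 4.08% had them all below. How often ratios of other gene pairs separate the states in this way was not counted, so how unusual this separation is cannot be said.

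The nearest tested gene on the outer side of NEAT1 did not pass the lineage test. This gene, FRMD8, which lies 9248 bases away, was between 5.11 and 9.91 scaled FPKM, with an adjusted p of 0.198 for lineage in edgeR. Whether FRMD8 differs from NEAT1 in its lineage pattern was not tested.

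The proteins of the bodies that these RNAs occupy were taken as lists. Of 15 paraspeckle proteins, all tested, 0 passed the edgeR test in either direction, 0 reached an unadjusted p under 0.05 and 0 passed the lineage test. Their median changes were 0.01 for LnCaP, 0.12 for VCaP and 0.48 for LAPC4, against -0.01, -0.01 and 0.00 over all tested genes and 0.12, 0.00 and 0.08 over tested protein-coding genes, so that in the LnCaP pair the list lay below its own class. In all 3 pairs 5 of the 15 were higher, as were 16.4% of all tested genes. SMARCA4, a chromatin-remodelling ATPase, had changes of 0.38, 0.25 and 0.98, and TAF15, an RNA-binding protein, had -1.10, 0.68 and 2.08. NEAT1 thus had negative changes in all pairs, whereas the list's medians were not negative. The NEAT1 value is that of 1 entry over its whole span, so the level of the long form cannot be read from it.

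Of 11 nuclear speckle proteins, 0 passed the edgeR test of state in either direction, and 2 were higher at an unadjusted p under 0.05. These were SON, a large scaffold protein of speckles, with changes of 0.22, 1.23 and 1.42, and PRPF6, a splicing factor, with 0.89, 0.16 and 1.52. The edgeR adjusted p was 0.526 for SON and 0.532 for PRPF6. Of all 17418 tested genes, 864 were higher at an unadjusted p under 0.05 in edgeR. The list's medians were -0.18, 0.11 and 0.71, to be set against the same protein-coding medians. In the LnCaP, VCaP and LAPC4 pairs 9, 5 and 2 of the 11 were lower, against 50.4%, 51.3% and 49.8% of all tested genes. In all 3 pairs 2 of the 11 were higher and 2 lower, as were 16.4% and 17% of all tested genes.

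GAS5 differed in opposite directions in different pairs. It was at 193 scaled FPKM in LnCaP against 88.5 in LnCaP-abl, at 255 in VCaP against 358 in VCaP-CR, and at 197 in LAPC4 against 179 in LAPC4-CR. LnCaP-abl was the lowest library and VCaP-CR the highest, so that both extremes were resistant lines. The counts were 6580, 3696, 9235, 20994, 9486 and 15752 in that order. LnCaP and LAPC4 had overlapping counting intervals, 189 to 198 and 193 to 201.

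The ratio of resistant to sensitive was 0.458 for the LnCaP pair (95% counting interval 0.440 to 0.477), 1.40 for the VCaP pair (1.37 to 1.44) and 0.910 for the LAPC4 pair (0.887 to 0.934). Over the pairs the change was -0.26 ± 0.81 (SD, n = 3 pairs), a spread larger than the mean. The edgeR test of state gave -0.25 (SE 0.35) with an adjusted p of 0.850, and without the LnCaP pair the estimate turned to 0.18. GAS5 overlaps the gene ZBTB37 by 801 bases, and ZBTB37 had 74 to 256 counts, far fewer than GAS5. The lineage test gave GAS5 an adjusted p of 0.186 with edgeR. It passed when no filter on low values was used (0.0409) and without the LAPC4 pair (0.0394).

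SNHG1 was lower in the resistant line of all 3 pairs, and it was the 1 member of 8 whose states did not overlap. It was at 140 scaled FPKM in LnCaP against 53.2 in LnCaP-abl, at 141 in VCaP against 127 in VCaP-CR, and at 178 in LAPC4 against 77.3 in LAPC4-CR. The sensitive lines lay between 140 and 178 and the resistant lines between 53.2 and 127, with VCaP-CR closest to the sensitive lines. All 3 resistant lines were below all 3 sensitive lines for 4.08% of all tested genes, and all 3 were above for 3.9%.

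The ratio of resistant to sensitive was 0.379 for the LnCaP pair (95% counting interval 0.360 to 0.398), 0.900 for the VCaP pair (0.868 to 0.932) and 0.433 for the LAPC4 pair (0.420 to 0.447). Over the pairs the change was -0.91 ± 0.66 (SD, n = 3 pairs), and the exact sign-flip p (two-sided) was 0.25. In edgeR the state difference was -0.92 (SE 0.33), with an unadjusted p of 0.0257 and an adjusted p of 0.528. The lineage test did not pass (adjusted p = 0.434). LnCaP and VCaP, at 140 and 141 scaled FPKM, were not distinguishable at this depth.

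SNHG1 lies 131 bases from SLC3A2, which encodes the heavy chain of amino acid transporters. SLC3A2 was at 28.0 scaled FPKM in LnCaP against 44.7 in LnCaP-abl, at 13.4 in VCaP against 9.65 in VCaP-CR, and at 97.1 in LAPC4 against 27.8 in LAPC4-CR. It was thus higher in LnCaP-abl than in LnCaP, where SNHG1 was lower. In the VCaP and LAPC4 pairs SLC3A2 was lower, as SNHG1 was. WDR74, the nearest tested gene on the other side, lies 10178 bases away. Its changes were -0.23 for LnCaP, -1.18 for VCaP and -0.71 for LAPC4, lower in every pair as SNHG1 was. Whether either neighbour follows SNHG1 was not tested.

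Across the states, 0 of the 4 tested members passed the edgeR test at an adjusted p under 5%, and so did 0% of all tested genes, in either direction. Without adjustment, edgeR put 864 genes higher and 693 lower at p under 0.05, NEAT1 and SNHG1 among the latter. DESeq2 called 0.534% of genes higher and 0.367% lower, and none of the 4 members was among them (adjusted p between 0.279 for SNHG1 and 0.929 for GAS5). NEAT1, SNHG1 and PCA3 were lower in all 3 pairs, which held for 17% of all tested genes. A change of at least 2-fold downward was seen for GAS5 and SNHG1 in the LnCaP pair (7.85% of all tested genes), for 0 members in the VCaP pair (2.37%) and for SNHG1 in the LAPC4 pair (6.81%). For a 2-fold change upward the count was 0 in each pair, against 6.71%, 2.58% and 5.77% of all tested genes.

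The median change of the 8 genes was -0.39 for the LnCaP pair, -0.04 for the VCaP pair and -0.14 for the LAPC4 pair, with 7, 4 and 7 of them lower, against 50.4%, 51.3% and 49.8% of all tested genes. The median over all tested lincRNAs was 0.01, -0.05 and -0.12. In each pair 4 of the 8 values come from genes too low to be tested.

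**Figure D2:**
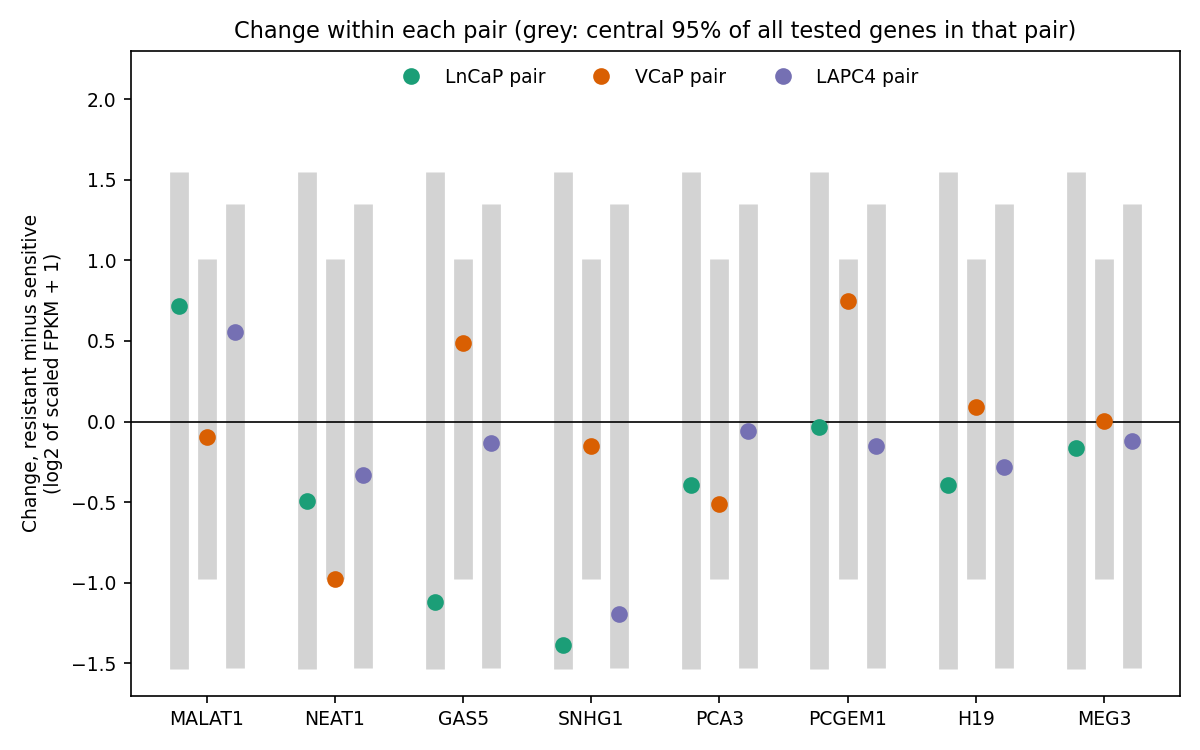
Change of each RNA within the LnCaP, VCaP and LAPC4 pairs (log2 of scaled FPKM + 1, resistant minus sensitive), with grey bars for the central 95% of all 17418 tested genes in the same pair. All points lie inside the grey bars, NEAT1 in the VCaP pair (-0.98) at the edge, and GAS5 lies on both sides of 0.

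Other snoRNA host genes had lower values in the resistant lines alongside SNHG1, by the largest median in the LnCaP pair. Of 16 further hosts listed, 9 were found in the tables and tested: 0 passed the edgeR test of state in either direction, and 2 were lower at an unadjusted p under 0.05. Of all 17418 tested genes, 693 were lower at that unadjusted p. The list's median change was -1.11 for the LnCaP pair, -0.37 for the VCaP pair and -0.24 for the LAPC4 pair. Over all tested genes the medians were -0.01, -0.01 and 0.00. In these pairs 8, 8 and 6 of the 9 were lower, against 50.4%, 51.3% and 49.8% of all tested genes. In all 3 pairs 6 of the 9 were lower, as were 17% of all tested genes. At least 2-fold lower were 5, 1 and 2 of the 9 in the LnCaP, VCaP and LAPC4 pair, against 7.85%, 2.37% and 6.81%. The lineage test was passed by 4 of them, SNHG3, SNHG6, SNHG7 and SNHG9, and by 12.1% of all tested genes.

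SNHG3 was at 34.7 scaled FPKM in LnCaP against 10.5 in LnCaP-abl, at 151 in VCaP against 71.6 in VCaP-CR, and at 58.2 in LAPC4 against 28.3 in LAPC4-CR. Its edgeR change was -1.27 (SE 0.27; adjusted p = 0.526). SNHG7 was at 43.9 and 16.5 scaled FPKM in LnCaP and its partner, at 104 and 59.9 in VCaP and its partner, and at 29.6 and 14.3 in LAPC4 and its partner, with an edgeR change of -1.08 (SE 0.26; adjusted p = 0.526). Both were lower in every pair, the VCaP pair included, where the change of SNHG1 was -0.15. SNHG5 had changes of -1.27, 0.19 and 0.06, so that it was lower in the LnCaP pair and higher in the VCaP pair, as GAS5 was.

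**Figure D3:**
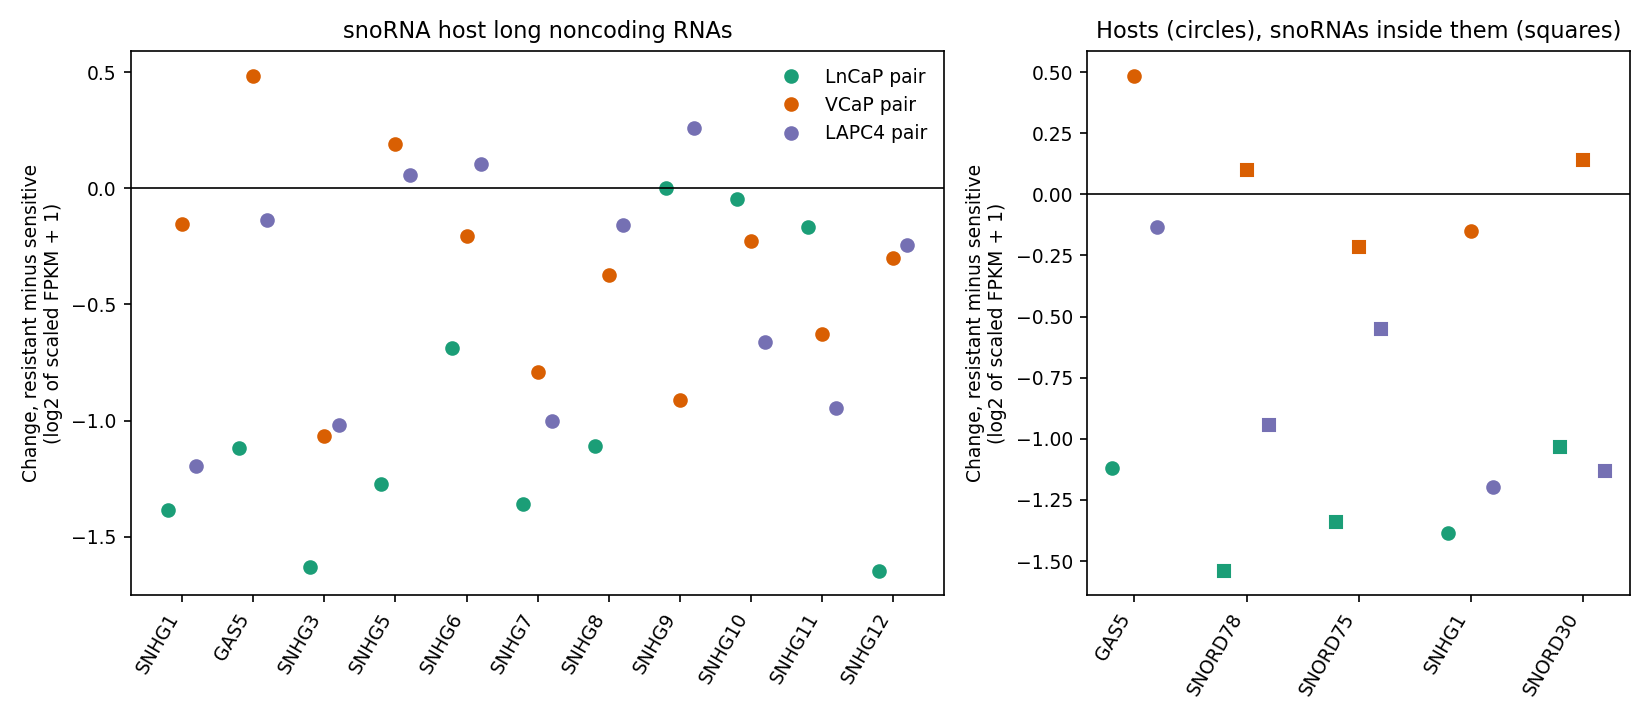
Left, changes of SNHG1, GAS5 and the 9 other snoRNA host genes within the 3 pairs (log2 of scaled FPKM + 1, resistant minus sensitive); right, the 2 hosts as circles beside the snoRNAs inside them that had counts, as squares. SNHG3 and SNHG7 are below 0 in all pairs, and the 3 snoRNAs are lower in the LnCaP and LAPC4 pairs.

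The snoRNAs inside the 2 hosts were found by position. Of 10 snoRNA genes inside GAS5, 8 had 0 counts in every library, and of 9 inside SNHG1, 8 had 0 counts. The other 3 had 747 to 9024 counts, and why entries of the same host were listed at 0 cannot be read from the tables. Since how reads shared by a host and its snoRNA were assigned is not given in the sources used here, the values of both are uncertain.

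SNORD30, the snoRNA with counts inside SNHG1, took 506 CPM, a count scaled to library total, in LnCaP against 241 in LnCaP-abl, 413 in VCaP against 474 in VCaP-CR, and 728 in LAPC4 against 335 in LAPC4-CR. Its changes of -1.03, 0.14 and -1.13 had the sign of those of SNHG1 in the LnCaP and LAPC4 pairs. SNORD78, inside GAS5, had changes of -1.54, 0.10 and -0.94, and SNORD75 had -1.34, -0.22 and -0.55. In the LAPC4 pair both were lower by more than GAS5 itself (-0.13).

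Nonsense-mediated decay removes spliced GAS5 and SNHG1, so its factors were listed. Of 8 factors, all tested, 0 passed the edgeR test of state in either direction. At an unadjusted p under 0.05, 1 was higher, as were 864 of all 17418 tested genes. In all 3 pairs 6 of the 8 were higher, against 16.4% of all tested genes. The medians were 0.24, 0.33 and 0.74, against 0.12, 0.00 and 0.08 over tested protein-coding genes. SMG1, the kinase that starts decay, was at 5.23 scaled FPKM in LnCaP against 9.13 in LnCaP-abl, at 4.63 in VCaP against 8.67 in VCaP-CR, and at 7.84 in LAPC4 against 14.3 in LAPC4-CR. Its changes of 0.70, 0.78 and 0.79 were close to one another, with an edgeR adjusted p of 0.526. UPF2, which bridges the decay complex, had changes of 0.02, 0.36 and 1.50. The part of these factors in the levels of GAS5 and SNHG1 was not tested.

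Ribosomal protein genes, a group added after values had been seen, were mostly lower too. The median change over 82 of them was -0.40 for LnCaP, -0.10 for VCaP and -0.35 for LAPC4, with 72, 54 and 67 lower. Of the tested protein-coding genes 41.1%, 50.1% and 43.3% were lower in these pairs, with medians of 0.12, -0.001 and 0.08. The share of counts in protein-coding genes was higher in the resistant libraries, at 77.5% against 67.8% for LnCaP, 68.0% against 62.8% for VCaP and 79.5% against 68.3% for LAPC4. The part of this share in the changes of the noncoding RNAs was not tested.

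PCA3 was a low transcript that was lower in the resistant line of all 3 pairs. It was at 0.924 scaled FPKM in LnCaP against 0.465 in LnCaP-abl (34 and 21 counts), at 1.82 in VCaP against 0.979 in VCaP-CR (71 and 62), and at 0.403 in LAPC4 against 0.348 in LAPC4-CR (21 and 33). VCaP was the highest library and LAPC4-CR the lowest. The ratio of resistant to sensitive was 0.504 for the LnCaP pair (95% counting interval 0.278 to 0.893), 0.539 for the VCaP pair (0.377 to 0.768) and 0.861 for the LAPC4 pair (0.484 to 1.57), so the LAPC4 difference was not detectable at this depth.

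The change of PCA3 was -0.32 ± 0.23 (SD, n = 3 pairs; exact two-sided sign-flip p = 0.25), and the states overlapped. Tested without the filter on low values, where edgeR called 0.153% of 43811 genes higher, 0.121% lower and 10.9% different between lineages, PCA3 had a state change of -0.62 (adjusted p = 0.850). Its lineage difference passed in that fit (adjusted p = 0.0267) but not with edgeR's own filter (0.0636).

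PRUNE2, the gene on whose opposite strand PCA3 lies, was far above it in 2 lineages. PRUNE2 was at 36.0 scaled FPKM in LnCaP against 26.4 in LnCaP-abl, at 20.5 in VCaP against 50.2 in VCaP-CR, and at 0.528 in LAPC4 against 0.264 in LAPC4-CR. In the VCaP pair the changes of the 2 genes had opposite signs, with 1.25 for PRUNE2 and -0.51 for PCA3. Whether the counting used strand is not given in the sources used here, so reads of PCA3 and of PRUNE2 may not have been told apart.

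PCGEM1 was near the limit of counting in 5 libraries and higher in VCaP-CR. It was at 0.134 scaled FPKM in LnCaP against 0.109 in LnCaP-abl (2 counts each), at 0.316 in VCaP against 1.21 in VCaP-CR (5 and 31 counts), and at 0.284 in LAPC4 against 0.156 in LAPC4-CR (6 counts each). VCaP-CR stood above the rest: its counting interval, 0.820 to 1.71, lay above those of all other libraries. The VCaP ratio was 3.82 (95% counting interval 1.47 to 12.6), and the changes in the LnCaP and LAPC4 pairs were -0.03 and -0.15. PCGEM1 shares 335 bases with the pseudogene AC013401.4, which had 18 to 76 counts, more than PCGEM1 in every library. Without the filter edgeR gave a state change of 0.69 (adjusted p = 0.932) and a lineage adjusted p of 0.0221. TMEFF2, a membrane protein gene 554135 bases away and the nearest tested gene on that side, had 1.92 scaled FPKM in VCaP against 17.9 in its resistant partner. In the LnCaP pair TMEFF2 was at 9.16 and 0.197, and in the LAPC4 pair at 2.93 and 0.212. VCaP-CR was the 1 resistant line with the higher value for both genes. The nearest tested gene on the other side, the pseudogene AC074290.1, was lower in every pair, with changes of -2.31, -0.38 and -0.39 for LnCaP, VCaP and LAPC4. A link between PCGEM1 and either neighbour was not tested.

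H19 and MEG3 were low, near the levels of genes that mark other cell types. H19 was at 0.720 scaled FPKM in LnCaP against 0.309 in LnCaP-abl, at 0.393 in VCaP against 0.484 in VCaP-CR, and at 0.643 in LAPC4 against 0.352 in LAPC4-CR, with 10 to 24 counts. Its ratio of resistant to sensitive was 0.429 for LnCaP (95% counting interval 0.178 to 0.970), 1.23 for VCaP (0.573 to 2.82) and 0.548 for LAPC4 (0.298 to 1.01). LnCaP and LAPC4 were thus the higher libraries, and the states overlapped.

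MEG3 was at 0.311 scaled FPKM in LnCaP against 0.169 in LnCaP-abl, at 0.255 in VCaP against 0.259 in VCaP-CR, and at 0.293 in LAPC4 against 0.188 in LAPC4-CR, with 26 to 61 counts. The ratios were 0.544 for LnCaP (95% counting interval 0.318 to 0.916), 1.02 for VCaP (0.652 to 1.60) and 0.643 for LAPC4 (0.437 to 0.949). The 2 VCaP libraries were level, and the resistant line was the lower one in the other lineages. Over the pairs the changes were -0.19 ± 0.25 for H19 and -0.09 ± 0.09 for MEG3 (SD, n = 3 pairs).

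A set of 7 markers of basal, leukocyte, fibroblast and mesenchymal cells, which these epithelial lines should lack, had library medians between 0.216 and 0.422 scaled FPKM, and 0 of the 7 had 0 counts in any library. The sum over the 7 was 2.31 to 3.36 in the sensitive and 1.52 to 4.33 in the resistant lines. The leukocyte gene PTPRC was between 0.130 and 0.338, and the basal keratin gene KRT5 between 0.327 and 0.446. KRT14 and VIM were highest in LAPC4-CR, at 1.70 and 1.13. H19 (0.309 to 0.720) and MEG3 (0.169 to 0.311) fell within the range that these markers had over all 6 libraries. Compared within each library, MEG3 was below the highest of the 7 markers in all 6, and H19 was below it in 5. In VCaP-CR the highest marker was at 0.332, and H19 (0.484), PCA3 (0.979) and PCGEM1 (1.21) exceeded it, though the counting interval of H19 there, 0.304 to 0.733, included that level. PCA3 also exceeded the highest marker in VCaP (1.82 against 0.836) and in LnCaP (0.924 against 0.795), and its counting interval in LnCaP, 0.640 to 1.29, included the marker level. PCA3 in the other 3 libraries and PCGEM1 in the other 5 were below the highest marker.

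**Figure D4:**
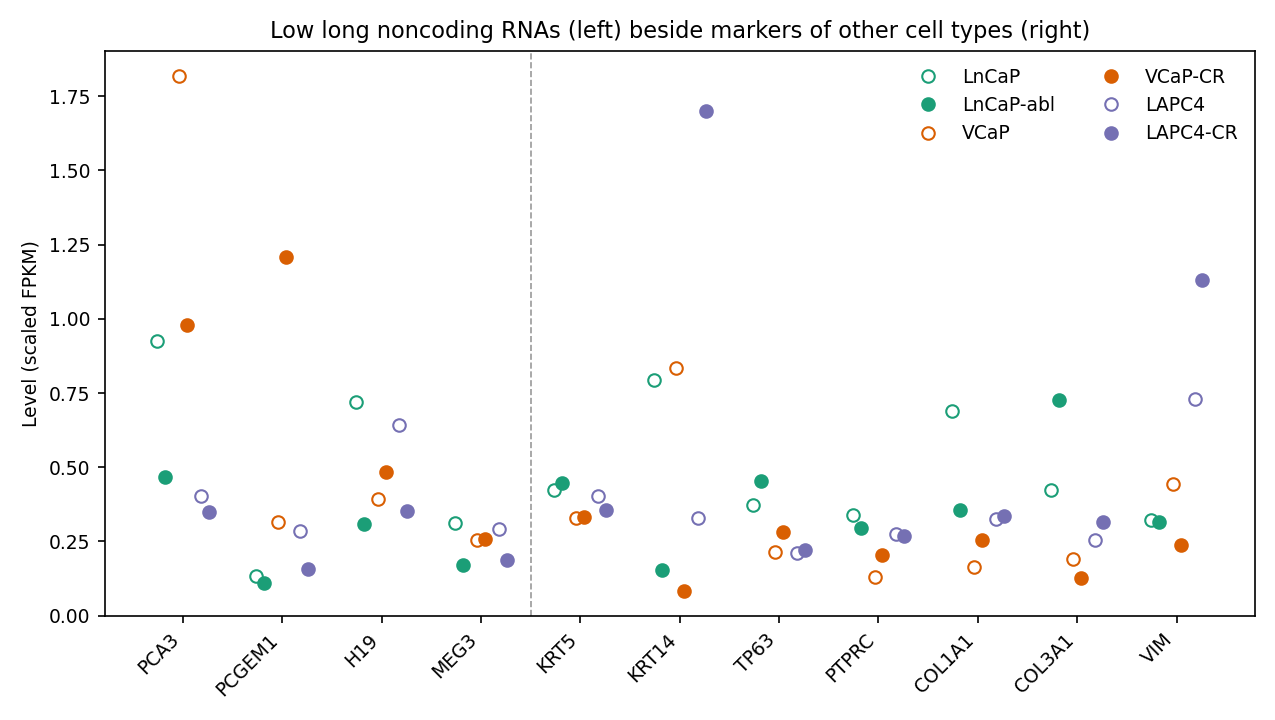
Level (scaled FPKM, linear axis from 0) of the 4 low RNAs, left of the dashed line, and of 7 markers of other cell types, right of it, with 1 point per library. H19 and MEG3 lie within the range of the markers over all libraries, whereas PCA3 in VCaP (1.82) and PCGEM1 in VCaP-CR (1.21) lie above most of them.

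Without the filter on low values, edgeR gave state changes of -0.50 for H19 (adjusted p = 0.917) and -0.40 for MEG3 (adjusted p = 0.955), and lineage adjusted p-values of 0.9996 and 0.969. Of 9 neighbours listed at the 2 imprinted loci, 7 were in the tables and 1 was tested, CDKN1C, an inhibitor of the cell cycle. CDKN1C was at 4.20 scaled FPKM in LAPC4 and between 0.336 and 1.05 in the other 5 libraries. IGF2, the growth factor gene beside H19, was at 1.97 in VCaP-CR and at most 0.538 elsewhere. MIR675, the microRNA within H19, had 0 counts in every library.

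Among 14 other long noncoding RNAs listed, 8 were in the tables and 5 tested, and 0 passed the edgeR test of state. TUG1 was higher in all 3 pairs, with changes of 0.37, 0.47 and 0.57 (adjusted p = 0.588). TP53TG1 was lower in all 3 pairs, with -0.89, -0.36 and -0.18, and it passed the lineage test (adjusted p = 0.00341). TP53TG1 was at 0.793 and 0.580 scaled FPKM in the LAPC4 lineage and at 13.4 or more in the other 4 libraries.

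The genes most like each tested member over the 6 libraries were named by Pearson's r of log2(scaled FPKM + 1), as a description of 6 points of which 2 always share a lineage. MALAT1 was nearest to FGD4 (r = 0.995) and CPNE4 (0.993), and NEAT1 to PPIA (0.999), which encodes cyclophilin A, and GLYCTK (0.997). GAS5 was nearest to the pseudogenes AC019181.3 (0.994) and RP11-510I6.3 (0.992), and SNHG1 to the pseudogene CTB-31C7.1 (0.999) and to JAGN1 (0.996). With 6 libraries an r above 0.95 was common: 160 genes reached it for MALAT1, 288 for NEAT1, 65 for GAS5 and 159 for SNHG1.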

How the data were processed

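RNA was sequenced from 6 lines, 1 library each. Per the labels' protocols, total RNA came from RNeasy columns and the library kit was the SOLiD Total RNA-Seq kit. Per the submitters' processing notes, HTSeq and the build hg18 were used. The aligner, annotation release, use of strand and treatment of reads with several matches were not given in the sources used here. The deposited tables list 51698 genes with whole-number counts and, per the file headers, FPKM; FPKM was rebuilt within 1% from count, gene length and library total. Counts were summed by symbol and 1377 symbols of small RNAs and mitochondrial genes left out. FPKM was divided by a median-ratio factor per library (0.863 to 1.08, from 12507 genes). The 17418 genes whose mean was at least 1 scaled FPKM were tested.

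State and lineage were tested on counts with edgeR 4.0.16 in R 4.3.3 (TMM, quasi-likelihood, state and parental line, Benjamini-Hochberg, 5%); the script was tested on simulated data. DESeq2 1.42.0, limma 3.58.1, other filters, scalings and pseudocounts (0.25 and 5 against 1) and leaving out each pair were alternatives. Pairing comes from the line names; deviations from the group means correlated at 0.449, 0.703 and 0.566 within the LnCaP, VCaP and LAPC4 pairs. Counting intervals are exact 95% Poisson intervals and cover counting error only. The members and lists were chosen with earlier results of these data known. In each list the 2 tested genes with the largest mean change are named, and any called; SNHG5, HOXB13, IGF2, the flanking genes and the MALAT1 to NEAT1 ratio were chosen after their values were seen. Start sites come from RefSeq on GRCh38.p14 (7 of 8 members matched) and transcripts from GENCODE 29; neither shares the tables' build.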

Additional observations from a re-analysis of the deposited data

Results flagged for a closer look

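The VCaP pair had the opposite direction to both other pairs for MALAT1 and GAS5, with counting intervals of the ratios that did not reach 1 in any pair. With 1 library per line the difference was not tested. For MALAT1 the LnCaP change minus the VCaP change was 0.81, and the VCaP change minus the LAPC4 change was -0.65, with resistant lines higher in the LnCaP and LAPC4 pairs and slightly lower in the VCaP pair. For GAS5 the LnCaP change minus the VCaP change was -1.60, and the VCaP change minus the LAPC4 change was 0.62, with VCaP-CR above VCaP and the other resistant lines below their parents. The VCaP pair is also the 1 pair in which the base medium differed, and its part in these differences cannot be told apart.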

How the results depend on the processing

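No member was called for state by edgeR under any filter, by DESeq2 or by limma. Over all genes, calls higher and lower were 0 and 0 with the pairs as a block, and also 0 and 0 with no replicate block; they were 67 and 53 without a filter on low values and 93 and 64 with DESeq2. With each pair left out in turn, 0 to 57 genes were called higher and 1 to 37 lower, the most without the LAPC4 pair. Genes differing between lineages numbered 2101, against 4793 without a filter, 3985 with DESeq2 and, leaving out 1 pair, 497 to 3164, the fewest without the VCaP pair. The cause was not tested. The GAS5 state change of -0.25 ranged from -0.63, without the VCaP pair, to 0.18, without the LnCaP pair. Members at least 2-fold higher in the VCaP pair numbered 1 with a pseudocount of 0.25, PCGEM1, and 0 otherwise. No member's change within a pair changed sign under another scaling or pseudocount; a factor from protein-coding genes shifted the median of all genes by -0.12 in the LnCaP pair and -0.11 in the LAPC4 pair. Limma for the lineage difference (1501 genes) was chosen after seeing the data. Counts of 2 to 71 limit PCA3, PCGEM1, H19 and MEG3.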
